A study of Homo sapiens with 16 samples.

Results

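TXNIP, the 4 ARRDC genes and the 3 MondoA and ChREBP glucose-sensing genes were followed in 2 established lines of human breast cancer cells, both estrogen receptor negative per the labels: MDA-MB-231 and, as the second, MDA-MB-468. The 8 genes, of 18332 in the deposited table, were selected on the glucose response of TXNIP and ARRDC4 in these same libraries together with the known membership of their family and pathway. The glucose responses and line differences of TXNIP and ARRDC4 are therefore given as descriptions with no test, whereas the other 6 genes were tested. Cells of each line spent 48 h in medium with 5 mM glucose, the low-glucose control, or with 25 mM glucose, the high-glucose model of hyperglycemia, with 4 replicate flasks per group and 16 RNA-seq libraries in all. Both groups of a line carried the same genetic background, each line derives from 1 tumor, and no other agent or allele was named for any group. The authors' culture methods describe conditioning in low-glucose medium and then media without serum. They place mannitol in the 5 mM control of some experiments, and do not say whether these libraries were among them.

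MondoA (MLXIP) and ChREBP (MLXIPL) are transcription factors that respond to glucose-6-phosphate, pair with MLX and bind carbohydrate response elements, which are spaced pairs of E-box-like motifs in promoters. TXNIP and ARRDC4 are the best known targets of MondoA in cultured cells. TXNIP binds thioredoxin and restrains glucose uptake through the transporter GLUT1, and it belongs to the alpha-arrestins, a family shared with the ARRDC proteins, which link membrane cargo to ubiquitin ligases of the NEDD4 family.

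The TXNIP values stand in the row of ENSG00000117289, known as an older Ensembl identifier of the gene. No table used here pairs that identifier with a symbol. The annotation lists TXNIP as ENSG00000265972 (hg19 chr1:145438490-145442635, plus strand, with 0 rows of its own in the deposited table), so the identity of the row rests on the identifier and not on a measured value. The positions of the other 7 genes on hg19 were chr9:140500137-140509812 for ARRDC1, chr19:18111941-18124911 for ARRDC2, chr5:90664448-90679134 for ARRDC3, chr15:98503933-98517063 for ARRDC4, chr12:122516628-122631894 for MLXIP, chr7:73007524-73038873 for MLXIPL and chr17:40719090-40725257 for MLX.

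The promoter sequences of TXNIP and ARRDC4 are shown because these genes had the largest fitted glucose responses among the 8, and because carbohydrate response elements would be sought there. Each line below holds the 250 bases before a RefSeq transcript start in GRCh38.p14, written 5′ to 3′ along the gene, at chr1:145996580-145996829 on the minus strand for TXNIP and at chr15:97960453-97960702 on the plus strand for ARRDC4. Capitals mark a spaced pair of E-box-like motifs, CACGNGNNNNNCACGNG on either strand, in TXNIP and the E-box CACGTG in ARRDC4.
TXNIP: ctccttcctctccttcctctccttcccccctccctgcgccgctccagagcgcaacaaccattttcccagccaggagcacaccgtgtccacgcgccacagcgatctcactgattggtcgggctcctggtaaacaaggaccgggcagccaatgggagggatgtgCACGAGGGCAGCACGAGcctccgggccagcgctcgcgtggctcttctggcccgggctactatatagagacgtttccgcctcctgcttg
ARRDC4: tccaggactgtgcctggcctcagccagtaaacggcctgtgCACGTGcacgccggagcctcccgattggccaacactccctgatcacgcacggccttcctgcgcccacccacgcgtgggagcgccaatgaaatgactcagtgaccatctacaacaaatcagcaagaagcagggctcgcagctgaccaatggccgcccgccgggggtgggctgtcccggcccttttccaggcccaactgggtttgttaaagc

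Promoters of all 8 genes were found in the RefSeq table, and the windows searched ran from 250 bases before to 50 bases after each start. The pair in the TXNIP promoter began 88 bases before the start and was held by 20 of 35116 promoters of the same length, 0.0570%. None of the promoters of the other 7 genes held it. The ARRDC4 promoter held 1 E-box, 210 bases before the start, and MLX held 1 at 50 bases, where 7.26% of all promoters held an E-box. A CCAAT box, CCAAT on either strand, occurred 3 times in the ARRDC4 window and 2 times in the first TXNIP window, against 34.6% of all promoters with at least 1. At least 1 window each of ARRDC1, ARRDC2, ARRDC3, MLXIP and MLX also held one, and that of MLXIPL did not. These matches describe letters in a window and not binding. The TXNIP window was found once on hg19 chromosome 1, at chr1:145438240-145438539 on the plus strand, so that its first 250 bases end where the annotated TXNIP gene begins.

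Depth ranged from 14094597 to 24425916 reads per library, and 3 reads, the floor used here, equalled 0.123 to 0.213 CPM, which are reads scaled to the library total. Values are normalized read counts, which are reads divided by 1 size factor per library, and group values are means ± SD with n = 4. A log2 fold change, or log2 change, is high minus low glucose on log2(value + 1), and a gene was called at an adjusted p under 0.05 in limma. The labels were checked against markers of the 2 lines. In low glucose the mesenchymal marker VIM was at 96228 in MDA-MB-231 against 21.5 in MDA-MB-468, the epithelial marker CDH1 at 5.51 and 2007, the basal keratin KRT5 at 1.13 and 15150, and EGFR at 9138 and 62683. ESR1, the estrogen receptor, was at 1.31 and 57.9. The median log2 fold change of all genes tested was 0.00 in either line. All values are from bulk RNA, in which a change in every cell and a change in a share of the cells cannot be told apart.

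In MDA-MB-231, TXNIP was 3.90-fold higher in high glucose. The 4 low-glucose libraries held 1042, 1099.9, 947 and 1071 normalized reads (1040 ± 66.6). The 4 high-glucose libraries held 4054, 4178, 4004 and 3989 (4056 ± 85.7). The groups were far apart, and replicates within a group stayed within a few percent of each other in high glucose. The fitted log2 fold change was 1.96 (SE 0.04). Because TXNIP was selected on this response, the SE describes the spread between replicates and is no test.

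In MDA-MB-468, TXNIP was nearly without reads in either medium. Of 8 libraries, 7 held 0 TXNIP reads, and the first high-glucose replicate held 2 reads (1.94 normalized), which is under the 3-read floor. The 8 libraries together held 133888178 reads, so the 2 reads allow up to 7.22 reads (exact Poisson 95% interval from 0.242), or 0.0540 CPM, where the interval covers counting error only. The 8 MDA-MB-231 libraries held 21114 TXNIP reads. In low glucose TXNIP was at least 313-fold higher in MDA-MB-231 than in MDA-MB-468, taking 3 reads per library as the floor for the latter. No glucose fold was computed for TXNIP in MDA-MB-468, where the gene did not pass the filter on low values, and the other 7 genes passed it in both lines. Among the 3883 genes at least as high as TXNIP in low-glucose MDA-MB-231, its own row left out, 35 had no more MDA-MB-468 reads than TXNIP did.

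ARRDC4, the alpha-arrestin known to be induced with TXNIP by MondoA, was a low-level transcript whose response ran in opposite directions in the 2 lines. In MDA-MB-231 the low-glucose libraries held 14.3, 9.79, 19 and 25.7 (17.2 ± 6.81). The high-glucose libraries held 21.4, 31.6, 47.4 and 45.7 (36.5 ± 12.3). High glucose was thus 2.12-fold higher on the means, but the groups overlapped, since the fourth low-glucose replicate lay above the first high-glucose replicate. The fitted log2 fold change was 1.06 (SE 0.30).

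In MDA-MB-468 the order was reversed. Low glucose gave 43.5, 59.7, 51.6 and 48.5 normalized reads of ARRDC4 (50.8 ± 6.81). High glucose gave 23.3, 22.9, 16 and 21.9 (21.1 ± 3.41). The groups did not overlap, low glucose was 2.41-fold above high glucose, and the fitted log2 fold change was -1.24 (SE 0.19). These levels rest on 10 to 25 and 22 to 51 reads per library in MDA-MB-231, and on 54 to 59 and 14 to 26 in MDA-MB-468. Counting alone would give an SD of 4.11 in the low-glucose and 5.95 in the high-glucose MDA-MB-231 libraries, less than the SD measured between replicates. In MDA-MB-468 it would give 6.88 in low and 4.6 in high glucose, no less than the SD measured. In low glucose ARRDC4 was higher in MDA-MB-468, by 1.58 on the log2 scale, the opposite order to TXNIP.

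**Figure D1:**
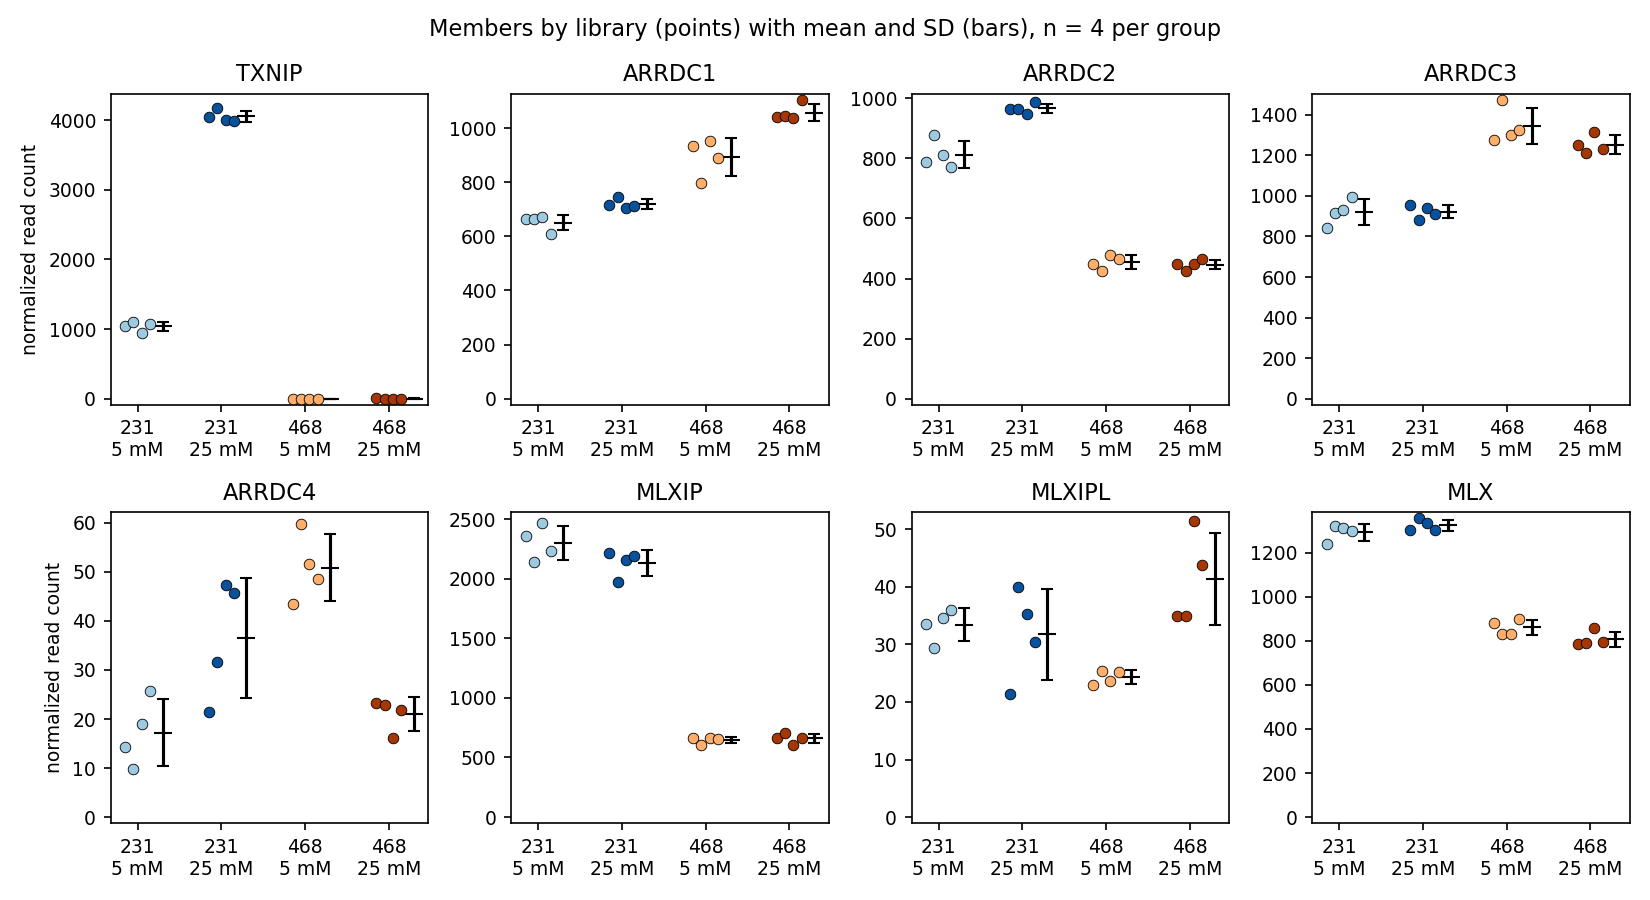
Normalized read count (vertical axis, from 0) of each of the 8 genes in every library, by cell line and glucose concentration, with points for the 4 libraries of a group and bars for mean and SD. TXNIP rises from about 1040 to 4056 in MDA-MB-231 and lies at 0 or next to it in all 8 MDA-MB-468 libraries, while ARRDC4 is higher in high glucose in MDA-MB-231 and lower in MDA-MB-468.

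The glucose sensors themselves were compared next. Of the 6 tested genes, 2 were higher, 0 lower and 4 not called in MDA-MB-231, where 5.71% of all genes tested were called higher and 9.37% lower. In MDA-MB-468 likewise 2 were higher, 0 lower and 4 not called, against 24.9% of all genes higher and 22.7% lower. The pair was ARRDC1 and ARRDC2 in MDA-MB-231, and ARRDC1 and MLXIPL in MDA-MB-468.

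MLXIPL, which encodes ChREBP, was a low-level transcript in both lines and rose in MDA-MB-468. Its low-glucose libraries there held 22.9, 25.4, 23.6 and 25.1 normalized reads (24.3 ± 1.20). The high-glucose libraries held 35.0, 35.0, 51.5 and 43.8 (41.3 ± 7.97). Every high-glucose library was above every low-glucose library, at 32 to 52 against 23 to 29 reads. The log2 fold change was 0.73 (adjusted p = 0.0049 in limma, SE 0.19), and the means differed 1.70-fold. In MDA-MB-231, low glucose gave 33.6, 29.4, 34.6 and 36.0 (33.4 ± 2.86) and high glucose gave 21.4, 40.0, 35.3 and 30.4 (31.8 ± 7.93). These groups overlapped, and the log2 change of -0.10 did not pass the test (limma adjusted p = 0.81, 95% interval -0.54 to 0.34). The response in MDA-MB-468 exceeded that in MDA-MB-231 by 0.83 on the log2 scale (SE 0.26, limma interaction, adjusted p = 0.0208).

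MLXIP, which encodes MondoA, did not pass the test in either line. In MDA-MB-231 it ranged from 2143 to 2467 in low glucose and from 1975 to 2219 in high glucose, a log2 change of -0.11 (limma adjusted p = 0.135). In MDA-MB-468 it ranged from 606 to 664 and from 605 to 705, a log2 change of 0.03 (limma adjusted p = 0.71). The groups overlapped in both lines. MLXIP differed far more between lines than between media, lower in MDA-MB-468 by 1.83 on the log2 scale in low glucose, at 647 ± 27.5 against 2301 ± 142.5.

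MLX, the shared partner of both sensors, also did not pass the test in either line. It stood at 1292 ± 37.2 and 1324 ± 26.4 in low- and high-glucose MDA-MB-231, a log2 change of 0.04 (limma adjusted p = 0.60). In MDA-MB-468 it stood at 861 ± 34.5 and 807 ± 33.4, a log2 change of -0.09 (limma adjusted p = 0.105). With the third high-glucose MDA-MB-468 replicate left out this became -0.12 (limma adjusted p = 0.0472), and a correction for transcript length gave -0.13 (adjusted p = 0.0221). The difference of the responses between lines was -0.13 (limma adjusted p = 0.070) and passed the test at -0.16 without the same replicate (adjusted p = 0.0222) and at -0.14 with the length correction (adjusted p = 0.0468).

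Among the alpha-arrestins, ARRDC2 rose in MDA-MB-231. The low-glucose libraries held 789.6, 879, 811 and 773 normalized reads (813 ± 46.4). The high-glucose libraries held 966, 964, 949 and 988 (967 ± 16). No low-glucose library reached any high-glucose library, and the log2 fold change was 0.25 (adjusted p = 0.0011 in limma, SE 0.05). In MDA-MB-468 the low-glucose libraries, at 449, 424, 478 and 466, overlapped the high-glucose libraries, at 448, 425, 447.5 and 464, with a log2 change of -0.03 (95% interval -0.14 to 0.09, limma adjusted p = 0.74). The response in MDA-MB-468 was lower than in MDA-MB-231 by 0.28 on the log2 scale (SE 0.06, limma interaction, adjusted p = 0.0035).

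ARRDC1, an alpha-arrestin known from the release of plasma membrane vesicles, rose in both lines, though the call in MDA-MB-231 depended on the analysis. In MDA-MB-468 the low-glucose libraries held 935, 796, 951 and 889 normalized reads (893 ± 69.7). The high-glucose libraries held 1042, 1046, 1039 and 1104 (1058 ± 30.9). The groups did not overlap, and the log2 fold change was 0.25 (adjusted p = 0.00091 in limma, SE 0.05). In MDA-MB-231 the low-glucose libraries held 663.8, 663, 670.5 and 608 (651 ± 29.3) and the high-glucose libraries 716, 747, 706 and 712 (720.3 ± 18.2). These groups did not overlap either, with a log2 change of 0.15 (adjusted p = 0.0480 in limma, SE 0.05). The call did not hold in 13 of 19 alternative analyses, among them the omission of any 1 of the 8 libraries, with adjusted p between 0.0514 and 0.160 in those 13. The responses of the 2 lines differed by 0.10 (95% interval -0.05 to 0.25), which did not pass the test (limma adjusted p = 0.31).

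ARRDC3, an alpha-arrestin known for the turnover of membrane receptors and integrins, did not pass the test in either line. It ranged from 844 to 996 in low-glucose and from 882 to 957 in high-glucose MDA-MB-231, a log2 change of 0.00 (limma adjusted p = 0.97). In MDA-MB-468 it ranged from 1276 to 1474 and from 1211 to 1317, a log2 change of -0.10 (limma adjusted p = 0.092). The groups overlapped in both lines, and the difference of the responses was -0.10 (limma adjusted p = 0.31).

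Across the 6 tested genes, 1 response was higher in MDA-MB-468 (MLXIPL), 1 was lower (ARRDC2) and 4 were not called as different, against 17.0% higher and 13.9% lower of all genes. In low glucose all 6 differed between the lines, where 45.0% of all genes were higher in MDA-MB-468 and 40.4% lower. ARRDC3 and ARRDC1 were higher there, by 0.54 and 0.45 on the log2 scale. ARRDC2, MLX, MLXIPL and MLXIP had log2 differences of -0.84, -0.58, -0.44 and -1.83. The MLXIPL difference (limma adjusted p = 0.0316) was lost in 8 of 27 alternative analyses, 5 of which each left out 1 low-glucose library, namely MDA-MB-231 replicate 1, 3 or 4 or MDA-MB-468 replicate 1 or 3, with adjusted p up to 0.0707 over all 27.

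**Figure D2:**
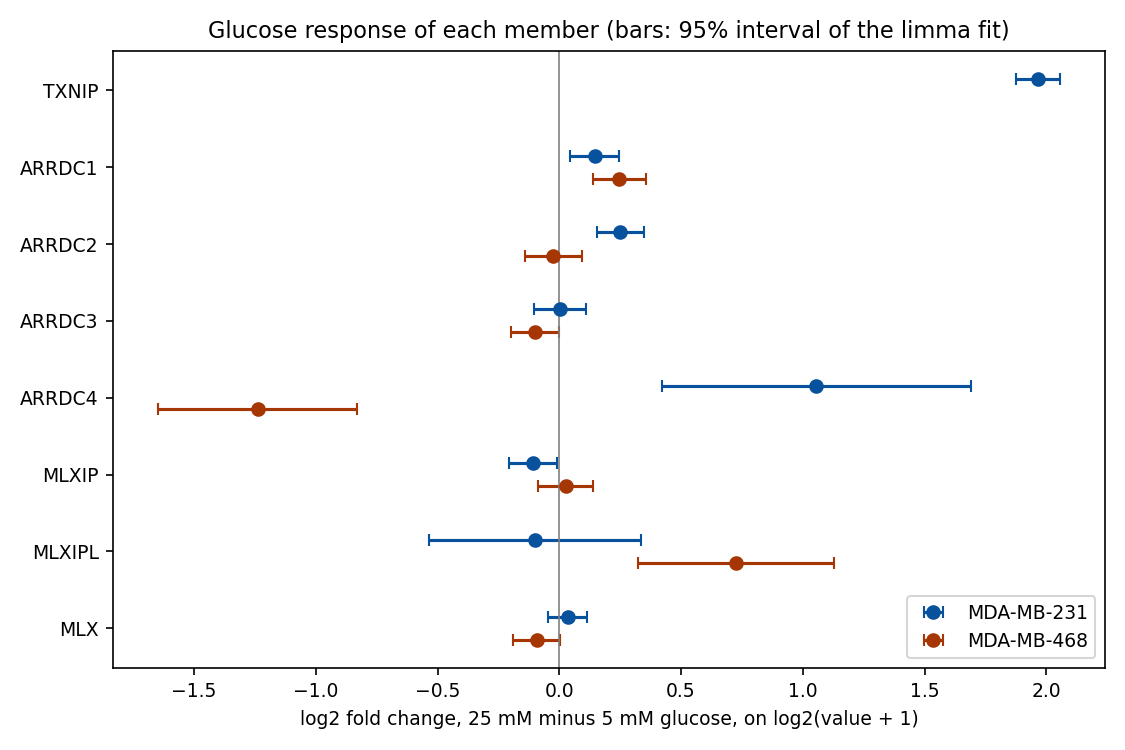
Fitted log2 fold change of each gene in high against low glucose (horizontal axis, on log2(value + 1)) in the 2 lines, with points for the estimate and bars for its 95% interval. TXNIP in MDA-MB-231 lies at 1.96 and has no point for MDA-MB-468, ARRDC4 lies at 1.06 and -1.24, and the other 6 genes lie between -0.11 and 0.73. For TXNIP and ARRDC4, selected on their response, the bars describe the spread between replicates and are no test.

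Scaled per length of transcript, as CPM per kb, levels can be set side by side between genes. In low-glucose MDA-MB-231 the order was MLX (31.6), ARRDC1 (24.1), TXNIP (20.7), ARRDC2 (18.8), MLXIP (15.7), ARRDC3 (12.5), MLXIPL (0.592) and ARRDC4 (0.244). Of the neighbours in that order, only TXNIP and ARRDC2 overlapped in their replicates. In high glucose TXNIP led at 82.2, above MLX at 32.9, and the last pair, MLXIPL at 0.574 and ARRDC4 at 0.528, overlapped. In MDA-MB-468 the order in low glucose was ARRDC1 (36.5), MLX (23.2), ARRDC3 (20.2), ARRDC2 (11.6), MLXIP (4.88), ARRDC4 (0.796), MLXIPL (0.475) and TXNIP at 0, with no overlap between neighbours. In high glucose MLXIPL (0.791) stood above ARRDC4 (0.323) there, with no overlap, and the 5 genes above them kept their order, with ARRDC1 at 42.3.

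The summed alpha-arrestin level was 76.4 ± 2.30 CPM per kb in low-glucose and 145 ± 1.98 in high-glucose MDA-MB-231. TXNIP, whose response was used in the choice of the genes, made up 27.1% ± 1.42 and 56.6% ± 0.449 of it. In MDA-MB-468 the sum was 69.0 ± 2.16 and 72.2 ± 1.04, and TXNIP made up 0% and 0.0146% of it. The sums in low glucose thus differed by a few CPM per kb between lines, while ARRDC1 and ARRDC3 took the larger shares in MDA-MB-468. MLXIP transcripts outnumbered MLXIPL transcripts per kb 26.7 ± 1.88 to 1 in low-glucose and 27.6 ± 9.0 to 1 in high-glucose MDA-MB-231. The ratio was 10.3 ± 0.861 in low-glucose and 6.37 ± 1.47 in high-glucose MDA-MB-468, with no overlap between those 2 groups. MLX stood above MLXIP 2.01- and 2.22-fold per kb in the 2 MDA-MB-231 groups, against 4.76- and 4.39-fold in MDA-MB-468.

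**Figure D3:**
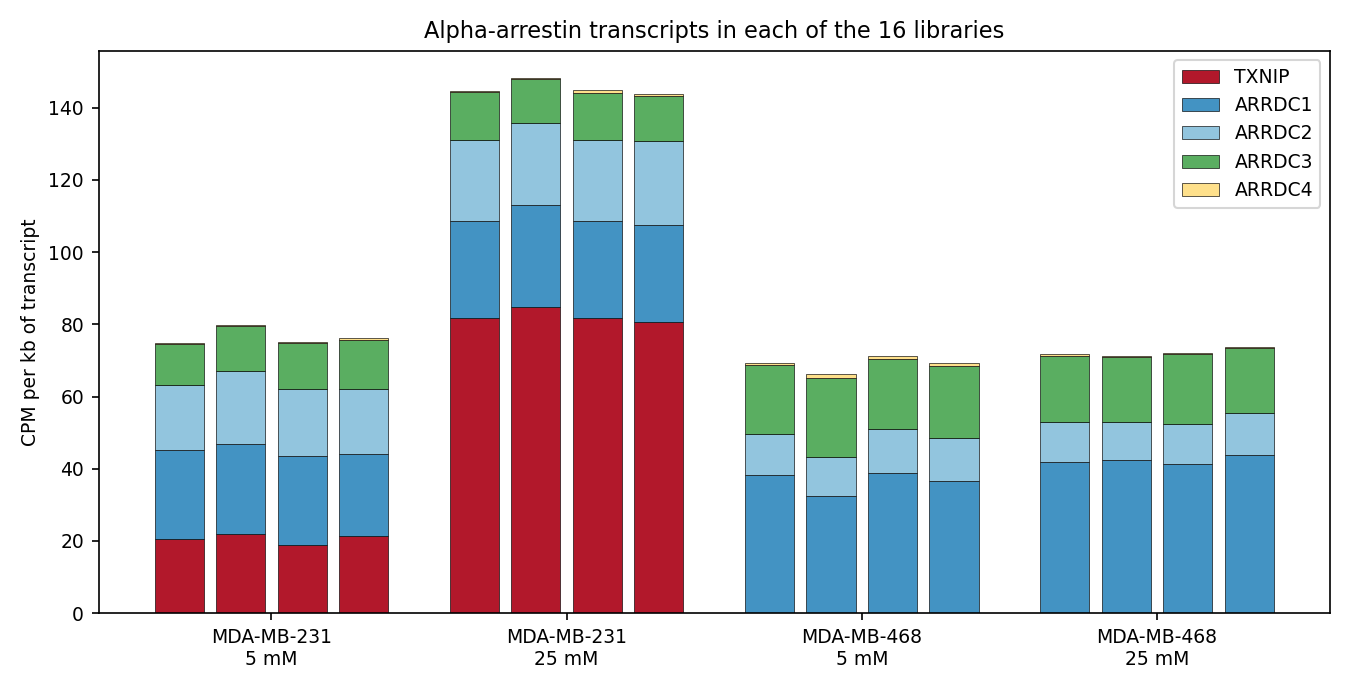
Level of the 5 alpha-arrestin transcripts, stacked, as CPM per kb of transcript (vertical axis) in each of the 16 libraries, grouped by line and glucose concentration in replicate order. The stack grows from about 76.4 to 145 in MDA-MB-231, mostly in its TXNIP share, and holds no visible TXNIP in MDA-MB-468.

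Annotated genes that overlap a member were noted. Of these, ENSG00000283411 overlaps ARRDC1 by 9617 bases and ENSG00000274080 overlaps MLXIPL by 2241 bases, each on the same strand. On the opposite strand, ARRDC3-AS1 overlaps ARRDC3 by 2969 bases and ENSG00000279172 overlaps ARRDC2 by 442 bases. None of these has a row in the deposited table, so their part in the values was not tested. Among genes with a row, ARRDC1-AS1 overlaps ARRDC1 by 35 bases, and PSMC3IP, on the opposite strand, overlaps MLX by 930 bases. PSMC3IP was at 128 and 97.8 in low- and high-glucose MDA-MB-231 and at 199 and 196 in MDA-MB-468, well under MLX. Whether the counting used strand was not stated, so its part in the MLX values was not tested.

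Genes around the members were read from lists of their pathway. The counts of each list stand against the shares of all genes tested, 5.71% higher and 9.37% lower in MDA-MB-231 but 24.9% higher and 22.7% lower in MDA-MB-468. With lists this short, nothing particular to a list is read from its counts. Among 10 genes of the MAX and MLX network, the transcription factors that share E-boxes with MondoA, 2 rose, 2 fell and 5 did not pass the test of 9 tested in MDA-MB-231, and 2 rose, 3 fell and 5 did not pass in MDA-MB-468. MXI1, a MYC antagonist, had a log2 change of 0.29 in MDA-MB-231 (limma adjusted p = 0.0010) and MYC one of -0.23. MXD3, another MYC antagonist, fell in MDA-MB-231 (-0.39, limma adjusted p = 0.0149) and rose in MDA-MB-468 (0.30, limma adjusted p = 0.0070). The list had a median log2 fold change of 0.05 and -0.06 in the 2 lines, in that order, beside 0.00 over all genes.

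Of 25 measured genes known as targets of carbohydrate response factors or as enzymes of glucose and lipid metabolism, 1 rose, 4 fell and 17 did not pass the test of 22 tested in MDA-MB-231. The median was 0.03. The gene that rose was ME1, malic enzyme, at 0.23, while LDHA, lactate dehydrogenase, was at -0.29 and PFKFB3, an activator of glycolysis, at -0.21. In MDA-MB-468, 8 rose, 4 fell and 13 did not pass, with a median of 0.03, a count near that expected from the shares of all genes (24.9% and 22.7%). PFKFB3 rose there (0.45), and its responses in the 2 lines differed by 0.65 (limma interaction, adjusted p = 1.8e-07). THRSP, a lipogenic factor induced by ChREBP in liver, rose there from 28.3 to 58.0 normalized reads, a log2 change of 0.99, and TKFC, triokinase of fructose metabolism, rose from 625 to 1014, one of 0.70. FGF21, a hormone induced by ChREBP in liver, fell from 8.21 to 0.951, where the second level lies under the 3-read floor and the fitted -2.26 depends on the added constant. KLF10, another MondoA target, was at 0.10 in MDA-MB-231 (limma adjusted p = 0.20) and fell in MDA-MB-468 (-0.23).

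Proteins that TXNIP acts on were followed by their transcripts. SLC2A1, which encodes GLUT1, fell in MDA-MB-231 from 9452 to 7853 normalized reads, a log2 change of -0.27, and did not pass the test in MDA-MB-468 (0.04, limma adjusted p = 0.36). The 2 responses differed by 0.30 (limma interaction, adjusted p = 0.0001). DDIT4, whose protein forms a complex with TXNIP, rose in both lines, by 0.40 and 0.16. The shares of all genes called, given above, stand beside the next counts as well. In the list of 7 TXNIP kinases and partners, 1 rose, 2 fell and 4 did not pass in MDA-MB-231 (median -0.11), and 2 rose, 0 fell and 4 did not pass of 6 tested in MDA-MB-468 (median 0.08). In the thioredoxin system, 2 of 10 measured genes rose, 0 fell and 8 did not pass in MDA-MB-231 (median 0.04), and 2 rose, 2 fell and 6 did not pass in MDA-MB-468 (median 0.05). TXN, thioredoxin itself, passed the test in neither line, TXNRD1, the cytosolic reductase, rose in MDA-MB-231 (0.11) and fell in MDA-MB-468 (-0.17), and TXNRD2, the mitochondrial reductase, rose in MDA-MB-468 from 238 to 453.

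Of the 9 NEDD4 family ligases, 0 rose, 2 fell and 7 did not pass in MDA-MB-231 (median -0.02), against 5.71% and 9.37% of all genes. SMURF2 was at -0.20 and NEDD4L at -0.11 there. In MDA-MB-468, 1 rose, 4 fell and 3 did not pass of 8 tested (median -0.10), against 24.9% and 22.7% of all genes, with NEDD4L at -0.53 and WWP2 at -0.23. ITCH, a ligase that targets TXNIP for degradation, passed in neither line (-0.02 and -0.06). Of 5 other genes of the arrestin fold, 1 rose, 0 fell and 4 did not pass in MDA-MB-231 (median 0.08), and 2 rose and 3 fell in MDA-MB-468 (median -0.10). ARRB1, a beta-arrestin, rose in both lines, by 0.15 and 0.16.

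**Figure D4:**
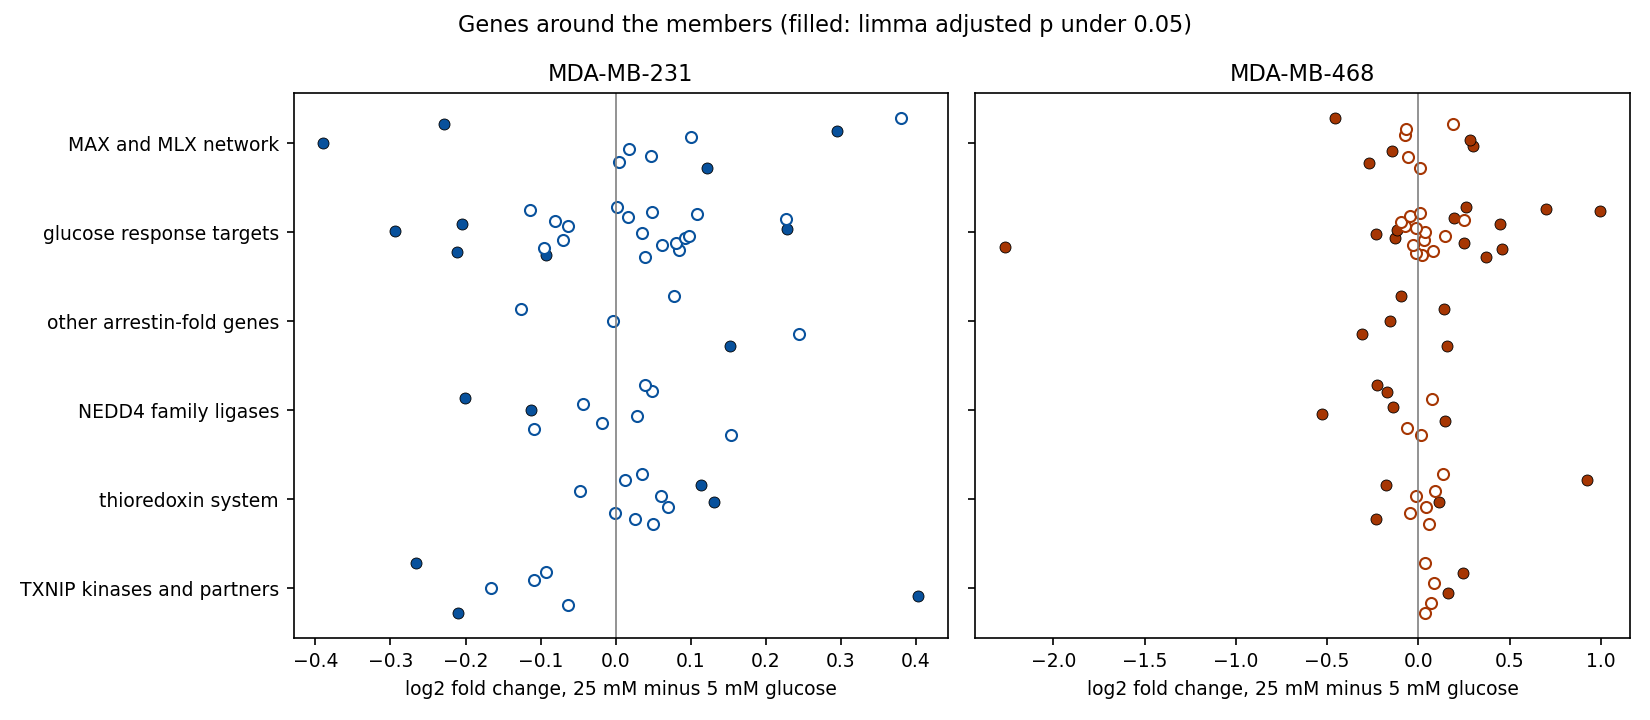
Log2 fold change of high against low glucose (horizontal axis, of different range in the 2 panels) for each tested gene of the 6 pathway lists, in MDA-MB-231 (left) and MDA-MB-468 (right), with filled points for genes past an adjusted p of 0.05. Most points lie within 0.5 of 0 in both lines, with FGF21 at -2.26 and THRSP at 0.99 the outermost in MDA-MB-468.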

How the data were processed

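Per the labels, RNA was isolated from each flask and sequenced on an Illumina instrument. The authors' methods name trimming with Trimmomatic, TopHat alignment to hg19, Ensembl 70 and DESeq2 1.24.0, while the processing notes name hg38 and edgeR. The read counter and its use of strand are not given in the sources used here. The deposited values were a normalized signal, reads divided by 1 size factor per library, and whole reads were recovered for 100% of them (largest deviation 5.457e-05).

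Genes that reached 0.5 CPM in no fewer than 2 of the fitted samples were tested on log2(value + 1) with limma 3.58.1 in R 4.3.3 (lmFit, eBayes with trend, two-sided, Benjamini-Hochberg over all genes tested, threshold 0.05), per line and, for interaction and line differences, over all 16 samples. Symbols were found for 16633 of 18332 identifiers and transcript lengths for 17648, in a GENCODE annotation on hg19. Lengths are those of the canonical transcript, or the longest for MLXIP. TXNIP and ARRDC4 were not tested. Alternatives used other pseudocounts, filters and scalings, edgeR 4.0.16, DESeq2 1.42.0, a replicate block, a length correction and the omission of each library.

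The members and gene lists were chosen with earlier results of these data known. All 8 members are named, and list genes were named by a rule of the largest responses that passed, with the best known genes of each list beside them. Nothing states that flasks came from independent cultures, so p-values measure the spread between these samples. Some genes that the naming rules select are not reported here. The 95% intervals of log2 changes come from the spread between replicates in limma, while the Poisson interval and the floors cover counting error only. The fits were tested on simulated data with changes planted in MDA-MB-231 only.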

Additional observations from a re-analysis of the deposited data

Results flagged for a closer look

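In 31 sets of 4 libraries, 1 for each gene and group with any reads, 5 held a library far from the other 3, where chance gives about 1 in 20. The first high-glucose MDA-MB-468 replicate held the only TXNIP reads of that line (1.94 normalized). That set was therefore bound to be flagged, and the rate of 1 in 20 does not apply to it. ARRDC1 was at 608 in the fourth low-glucose MDA-MB-231 replicate, below the rest, and at 1104 in the fourth high-glucose MDA-MB-468 replicate, above the rest. MLXIP was at 606 in the second low-glucose MDA-MB-468 replicate, below the rest, and MLX at 857 in the third high-glucose MDA-MB-468 replicate, above the rest.

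The glucose response differed between the lines for 2 of the 6 tested genes. Of all genes tested, 17.0% had a higher and 13.9% a lower response in MDA-MB-468, so this count does not stand apart. The difference, MDA-MB-468 minus MDA-MB-231, was -0.28 on the log2 scale for ARRDC2 and 0.83 for MLXIPL.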

How the results depend on the processing

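Of 33 results, 29 neither gained nor lost a call under the alternatives tried, no called result changed direction, and 26 of 754 recomputed values gained or lost a call. The 33, the 29 and the 754 include results for TXNIP, ARRDC4 and the numbers of genes called. Those had no call to gain or lose and were compared by size, so these shares overstate how stable the calls were. ARRDC1 in MDA-MB-231 lost its call without the filter, with DESeq2 and with the replicate block (0.15 in each), with the length correction and with block and length correction together (0.11 in both), and in the omissions of 1 library (0.11 to 0.16). MLX in MDA-MB-468 gained a call with the length correction, with or without the block (-0.13), and over omissions of 1 library ranged from -0.12 to -0.072. The MLX difference between the responses gained one with the length correction (-0.14), with a range of -0.16 to -0.11 over omissions. The MLXIPL difference between lines lost its call with DESeq2 (-0.48) and with the length correction, with or without the block (-0.40), and ranged from -0.50 to -0.40 over omissions. The cause was not tested. DESeq2 gave no adjusted p for MLXIPL in MDA-MB-231. Among the 29, ARRDC3 and MLXIPL in MDA-MB-231 and MLXIP in MDA-MB-468, none of them called, changed sign in some alternatives.

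Replicate numbers were shared between groups. In MDA-MB-231 same-numbered samples did not deviate together (correlations of -0.040 to -0.0051). There, 0 of the 4 low-glucose samples correlated best with their own number. In MDA-MB-468 the correlations were positive but weak (0.0167 to 0.0319), and 3 of the 4 low-glucose samples correlated best with their own number. The replicate block gave 1624 called genes in place of 2245 in MDA-MB-231 and 7383 in place of 7495 in MDA-MB-468. TXNIP in MDA-MB-468 had 0 to 2 reads per library, with an upper bound of 0.0540 CPM over the 8 libraries that covers counting error only. Among the fitted values, depth limits those of ARRDC4 and MLXIPL, at 10 to 59 and 22 to 52 reads per library.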

Other observations

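The following values were chosen after they were seen. Of the 20 gene symbols whose promoter held the spaced pair of E-box-like motifs in the layout searched, 16 were in the table. Apart from TXNIP, 15 were tested in MDA-MB-231 and 2 were called, GFPT1, the entry enzyme of the hexosamine pathway, at a log2 fold change of 0.23 (limma adjusted p = 9.5e-05) and RAN at -0.12 (limma adjusted p = 0.0076). In MDA-MB-468, 6 of 13 were called, and GFPT1 was not, at -0.06 (limma adjusted p = 0.30). Over all genes, 5.71% were higher and 9.37% lower in MDA-MB-231 and 24.9% and 22.7% in MDA-MB-468, so neither count stands apart from the background.

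Measured genes within 100 kb of TXNIP on hg19 were not all without reads in MDA-MB-468. In low glucose POLR3GL was at 403 in MDA-MB-231 against 143 in MDA-MB-468 and ITGA10 at 841 and 4.71.

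Over the 16 libraries, the profiles most like that of TXNIP included those of SEC23B (Pearson r = 0.997), BRI3, RNF103 and SAV1, of 12429 genes compared. These libraries fall into 2 lines and 4 groups, so r mostly describes group means. In low and high glucose BRI3 was at 1147 and 1349 in MDA-MB-231, against 365 and 371 in the other line. For ARRDC4 they were LIPA and GCC1 (r = 0.846 for both), ENSG00000112096, which has no symbol here, ATF1 and USP3.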
